A study of Mus musculus with 42 samples.

Results

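The comparison described here sets newborn mouse lungs that lack the gene Nfe2l2 against lungs that carry it, both after 2 days in high oxygen. It rests on the 3 arrays titled as knockout (KO) and the 3 titled as wild type (WT) at day 2 of O2, 6 of the 42 arrays of the study, and it is read over 18194 genes. The 3 KO pups carried no working copy of Nfe2l2 (genotype label Nrf-/-), and the 3 WT pups carried both (Nrf+/+). Both groups entered oxygen of at least 95% within a day of birth (P1) and stayed in it 23 h a day for 2 days, to P3, with foster dams that were exchanged each morning. Each array holds RNA from the homogenised lung of 1 pup, measured on an Affymetrix 3' expression array. Values from pups of both genotypes kept for 2 days in room air (called air at P3 below), and after 1 and 3 days of hyperoxia, also 3 arrays per group, are given only to place those of day 2. The sources used here do not give the mouse strain, how the deletion was made or the hour of sampling.

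Nfe2l2 encodes NRF2, a transcription factor of the leucine zipper family. In unstressed cells the adaptor KEAP1 holds NRF2 for ubiquitination and destruction by the proteasome, and oxidants or electrophiles that modify KEAP1 let NRF2 build up, pair with small MAF proteins and bind antioxidant response elements in DNA. Its targets make and use glutathione, reduce thioredoxin and quinones, detoxify reactive compounds, supply NADPH and handle haem and iron. Pure oxygen injures the newborn lung through reactive oxygen species while alveoli are still to form, and mice without NRF2 are a standard model of raised sensitivity to it.

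The deposited values are on the log2 scale, so that a difference of 1 stands for a 2-fold change. A gene was called when its adjusted p lay under 0.05 in limma, a linear model fitted to all 42 arrays, with adjustment over all 18194 genes; errors of differences are standard errors (SE) of that fit, and the number of arrays, 3 per group, limits the precision. In all 6 arrays Sftpc, Scgb1a1 and Ager, of alveolar type 2, club and alveolar type 1 cells, lay at or above the 99.9th percentile of genes. Of the other lung markers looked at, Sftpb lay at percentiles 99.6 to 99.8 and Pecam1 at 92.3 to 96.4. Foxj1 (48.7 to 59.6) and Nkx2-1 (37.4 to 50.7) lay near the middle of the scale. Arrays of one group correlated across genes at r = 0.9957 to 0.9972 in KO and 0.9876 to 0.9966 in WT, against 0.9835 to 0.993 between the groups. In 2 WT arrays other tissues stood out. In WT replicate 1 a list of 14 heart muscle genes averaged 2.90 log2 units above the median of the 42 arrays, against −0.83, 0.34 and −0.19 in the KO arrays and 0.22 and 0.18 in the other WT arrays. There 11 liver genes also averaged 1.27, against −0.07 to 0.35 in KO and −0.23 and −0.32 in the other WT arrays. In WT replicate 2 a list of 10 thymocyte genes averaged 1.07 above that median, against −0.10 to −0.05 in the KO arrays and −0.06 and −0.09 in the other WT arrays. A list of 9 fat cell genes differed between whole groups, at 0.51 to 0.81 in the WT arrays and −0.39 to 0.33 in the KO arrays. So did a list of 10 erythroid genes, at 0.13 to 0.53 in the WT arrays and −0.26 to −0.03 in the KO arrays. Y-linked transcripts were present in KO replicates 1 and 2 and in WT replicates 1 and 3. Of these 4 arrays WT replicate 3 also had the female-specific Xist at 8.54, against 6.52 to 6.70 in the other 3, and the reason was not tested. In whole lung, fewer cells of a type and less RNA per cell cannot be told apart.

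The deleted gene was checked first. Nfe2l2 read 4.72, 4.70 and 4.31 in the KO arrays and 10.81, 11.01 and 11.05 in the WT arrays. The difference was −6.38 ± 0.18 (SE; limma adjusted p = 1.26e-22). The KO values lay at percentiles 6.16 to 12.2 of their arrays, near the lower end of the scale. With any value below its array's 10th percentile raised to that level, a rule chosen after seeing the data, Nfe2l2 was at least 78.8-fold lower in KO. A second, dim probe set of the gene read 6.40 ± 0.22 in KO and 5.89 ± 0.10 in WT (SD, n = 3 each) and was not used.

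In all, 934 genes differed between KO and WT after 2 days of hyperoxia, which is 5.13% of those tested. Of these, 564 (3.1%) were higher and 370 (2.03%) lower in KO. Most differences were small, with a median size of 0.44 log2 units among called genes. A change of at least 2-fold was found for 67 of them, 23 higher and 44 lower. The count depends on single arrays: it was 357 without KO replicate 3, 487 without KO replicate 1, 518 without WT replicate 1, 598 without WT replicate 3, and 612 and 645 without KO and WT replicate 2. The split also moved with the scaling of the arrays, from 60.4% of called genes higher in KO to 49.0% (618 higher, 644 lower) under cyclic loess normalisation. The choice of probe set moved sizes as well. Of 111 called genes followed through the alternatives, 30 changed by over 1.5 times when all probe sets of a gene were averaged, and 14 of these lost their call. In the plot of all tested genes the called falls in KO reach further than the called rises, apart from Trim12c.

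**Figure D1:**
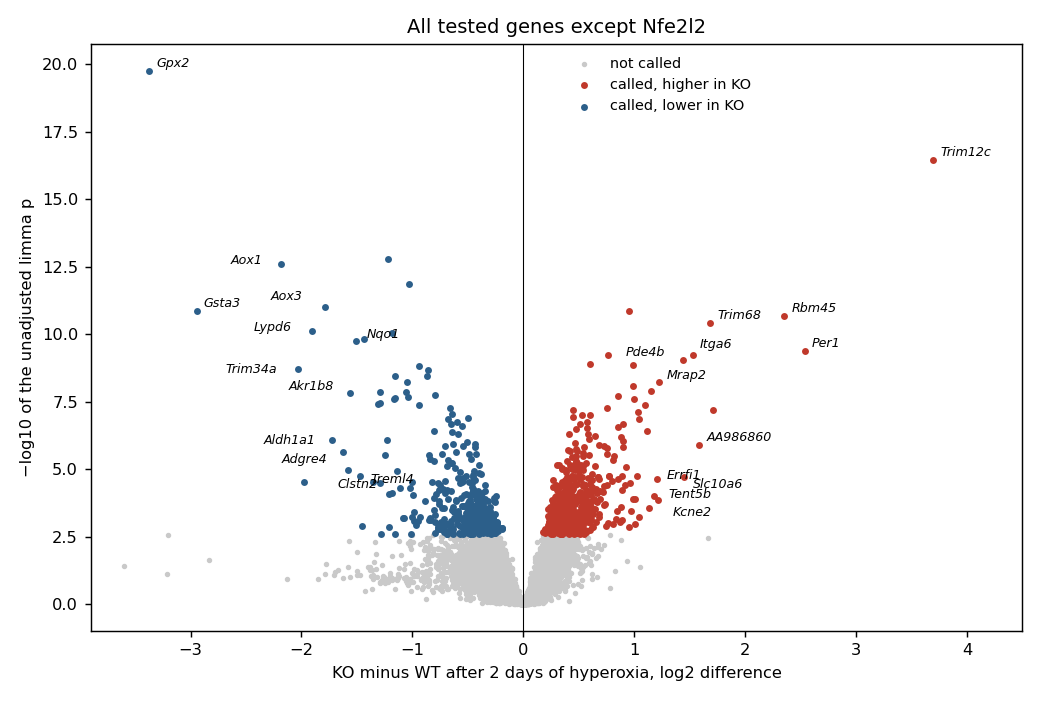
Difference of KO minus WT after 2 days of hyperoxia in log2 units (x axis) against the −log10 of the unadjusted limma p (y axis) for every tested gene except Nfe2l2, with the 12 largest rises and 12 largest falls named, leaving out predicted genes such as Rik clones. Red and blue points are the 564 genes called higher and 369 of the 370 called lower in KO (Nfe2l2 being the one left out), and grey points were not called.

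Most of the NRF2 targets measured fell in KO. Of 45 measured genes of a list of 54 known targets, 31 fell in KO, 0 rose and 14 were not called. That is 68.9% called lower, beside 2.03% of all genes, and the median difference of the list was −0.47 beside 2e-04 for all genes. At an unadjusted p under 0.05, 37 were lower and 1 was higher in limma. In 37 of the 45 the 3 KO arrays did not overlap the 3 WT arrays, against 29.4% of all genes. All 31 are named below by the role of their products.

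Among the enzymes that use glutathione, Gpx2, a selenium-containing glutathione peroxidase of epithelia, fell furthest. It read 6.03, 6.55 and 6.25 in KO lungs and 9.71, 9.51 and 9.73 in WT lungs, a difference of −3.38 ± 0.16 (10.4-fold; limma adjusted p = 1.56e-16). Gsta3, a glutathione S-transferase that is also a marker of club cells, read 5.39, 6.11 and 5.72 in KO lungs and 8.61, 8.50 and 8.95 in WT lungs, or −2.95 ± 0.29 (7.71-fold; limma adjusted p = 2.84e-08). In both genes every KO array lay more than 2 log2 units below every WT array. The other transferases that fell were Gstm1 (−1.22), Gsta2 (−1.14), Gstp1 (−0.55), Gstm2 (−0.43) and Gstm3 (−0.42), together with the membrane-bound Mgst1 (−0.50). Gsta4, Gstm4, Gstt1 and Mgst2 lay between −0.20 and 0.01 and did not pass.

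The genes that make and recycle glutathione fell as well. Gclc, the catalytic subunit of glutamate-cysteine ligase and the rate-limiting step of glutathione synthesis, read 9.79, 9.64 and 9.95 in KO lungs and 10.58, 10.95 and 11.004 in WT lungs, a difference of −1.05 ± 0.14 (2.08-fold; limma adjusted p = 7.89e-06). Its modifier subunit Gclm fell by 0.45 and Gsr, which reduces oxidised glutathione, by 0.47. Slc7a11, the cystine importer that feeds the pathway, was called lower (−0.31) and was dim in both groups, with KO arrays at 4.40 to 4.44 and WT arrays at 4.60 to 4.92. All its KO arrays lay below their 10th percentile, so the size of this difference is not well measured, and raised to that level it was −0.15. The groups did not overlap in any of these 4 genes.

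The thioredoxin branch moved the same way. Txnrd1, the cytosolic thioredoxin reductase, read 9.82, 9.78 and 9.91 in KO lungs and 10.71, 10.92 and 10.98 in WT lungs, or −1.03 ± 0.09 (limma adjusted p = 4.06e-09; −0.55 with probe sets averaged). Srxn1, sulfiredoxin, which repairs over-oxidised peroxiredoxins, read 7.11, 7.56 and 7.59 in KO lungs and 8.48, 8.52 and 8.72 in WT lungs, or −1.16 ± 0.16 (limma adjusted p = 1.13e-05; −0.66 with probe sets averaged). Thioredoxin itself (Txn1) fell by 0.25. All KO arrays lay below all WT arrays in these 3 genes too.

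Quinone, aldehyde and drug metabolism held the next largest falls. Aox1, an aldehyde oxidase, read 5.28, 5.55 and 5.56 in KO lungs and 7.47, 7.86 and 7.62 in WT lungs, or −2.19 ± 0.18 (4.55-fold; limma adjusted p = 8.92e-10). Nqo1, the quinone reductase most often used as an NRF2 reporter, read 6.61, 6.39 and 6.47 in KO lungs and 8.18, 7.81 and 8.01 in WT lungs, or −1.51 ± 0.16 (2.85-fold; limma adjusted p = 2.2e-07). Also lower were the aldo-keto reductase Akr1b8 (−1.57), the carbonyl reductase Cbr3 (−0.87), the carboxylesterase Ces1g (−0.79), the aldehyde dehydrogenase Aldh3a1 (−0.63), the export pump Abcc4 (−0.61), and Pir (−1.16) and Osgin1 (−0.83), 2 widely used NRF2 reporters. The KO arrays of Ces1g also lay below their 10th percentile, and raised to it the difference was −0.63. Akr1b10, Ephx1, Abcc1, Ptgr1 and Cbr1 lay between −0.36 and −0.18 without passing, and Cat, Mafg, Akr1c13, Sqstm1 and Ugdh between −0.33 and 0.20.

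Haem and iron handling and the supply of NADPH completed the list. Hmox1, haem oxygenase 1, read 8.29, 8.33 and 8.41 in KO lungs and 9.21, 9.42 and 9.54 in WT lungs, a difference of −1.05 ± 0.13 (limma adjusted p = 3.91e-06). Blvrb, a biliverdin reductase, fell by 0.76 and Fth1, the ferritin heavy chain, by 0.26. Of the NADPH enzymes Me1, malic enzyme, fell by 0.86, and Pgd, Taldo1 and Tkt of the pentose phosphate pathway fell by 0.49, 0.40 and 0.31. Of 20 measured regulators of the pathway 1 was called, Bach2, a repressor that binds the same DNA element, higher by 0.66 ± 0.15 in KO (limma adjusted p = 0.00544), which is 5% beside 3.1% of all genes. Keap1 was at −0.18 (limma adjusted p = 0.251).

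The calls of 18 of the 31 lowered targets held under every alternative tried, those of Gpx2, Gsta3, Aox1, Akr1b8, Nqo1, Gstm1, Pir, Srxn1, Gsta2, Gclc, Hmox1, Txnrd1, Cbr3, Me1, Ces1g, Blvrb, Gstp1 and Pgd. The other 13 lost their call under at least one. Without WT replicate 3 the count of lowered targets was 22, the smallest over the alternatives, beside 1.15% of all genes, and leaving out any other array of the comparison gave up to 28. Slc7a11 in particular was at −0.21 with a limma adjusted p of 0.191 without WT replicate 3, and Gclm reached a limma adjusted p of 0.123 without KO replicate 3. Bach2 reached a limma adjusted p of 0.0596 with the scores of other tissues as covariates.

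**Figure D2:**
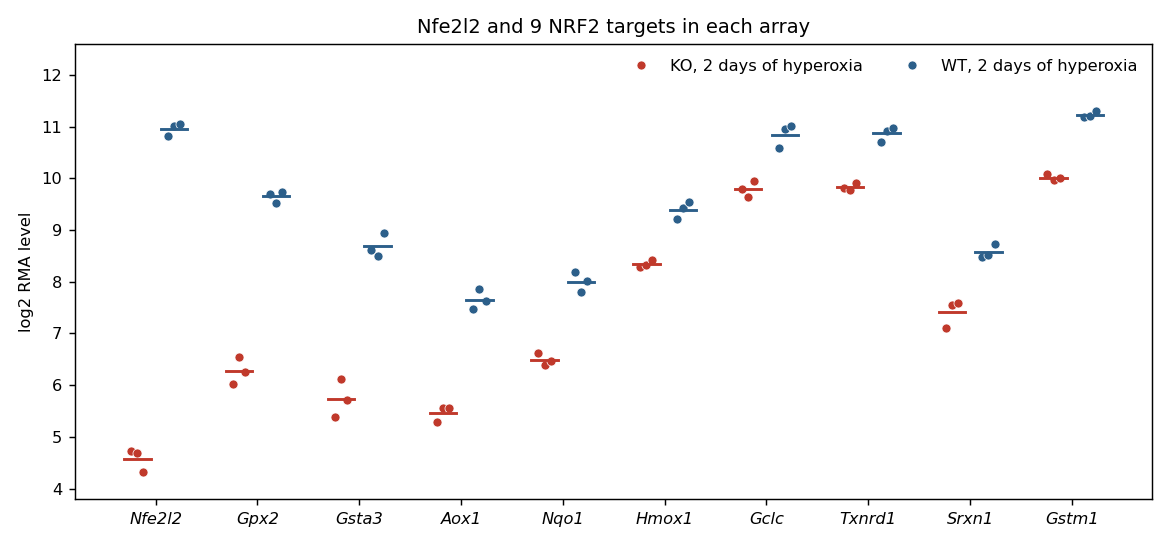
Log2 level (y axis) of Nfe2l2 and 9 NRF2 targets in each of the 3 KO arrays (red, left of each pair) and 3 WT arrays (blue) after 2 days of hyperoxia, with bars at the group means. In all 10 genes the KO arrays lie below the WT arrays without overlap, from 4.31 to 4.72 against 10.81 to 11.05 in Nfe2l2 to 9.96 to 10.08 against 11.18 to 11.30 in Gstm1.

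The same genes at the other time points place these falls. In room air at P3, with no oxygen exposure, 23 targets were lower and 1, Sqstm1, higher in KO, beside 12.7% lower and 8.99% higher of all genes, with a median of −0.36. After 1 day of hyperoxia 27 were lower and 0 higher, where 2.96% of all genes were called, 0.896% lower and 2.06% higher, and after 3 days 34 were lower (6.14%). Of the 31 targets lowered on day 2, 18 were also lower in air at P3, 25 after 1 day and 27 after 3 days of hyperoxia, and these comparisons share no array. The mean level of the list relative to the median of all 42 arrays was −0.13 to −0.03 in KO and 0.52 to 0.70 in WT lungs on day 2. In air it was −0.35 to −0.21 in KO and 0.00 to 0.20 in WT lungs. Where the gap between genotypes changed was tested as a difference of differences.

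Against air at the same age the gap was wider on day 2 of hyperoxia for 9 targets and narrower for 0, beside 0.423% and 1.34% of all genes. Gpx2 stood at −3.38 in hyperoxia and −1.06 in air (difference −2.32; limma adjusted p = 1.33e-07). Srxn1 stood at −1.16 and −0.08 (difference −1.08; limma adjusted p = 0.00826), and Hmox1 at −1.05 and −0.23 (difference −0.81; limma adjusted p = 0.0175). Ces1g (−0.73), Cbr3 (−0.69), Gstm1 (−0.62), Txnrd1 (−0.50), Slc7a11 (−0.49) and Fth1 (−0.31) were the others, by the size of the widening. For Slc7a11 both groups in air lay between 4.27 and 4.53, at the lower end of the scale, so that its size there is uncertain. Gsta3, by contrast, was already −2.27 lower in KO in air, and its widening of −0.67 did not pass (limma adjusted p = 0.473). In air at P3, KO replicates 2 and 3 carried skeletal muscle transcripts and WT replicates 2 and 3 liver transcripts, 2.24 to 5.58 log2 units above the median of all arrays. Without every array so marked, 1 KO and 1 WT array remained in air, assumed to vary like the other groups, and of the 9 widenings that of Gpx2 was called.

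Between day 2 and day 3 of hyperoxia the gap grew further for 6 targets. Gsta2 stood at −1.14 on day 2 and −2.94 on day 3 (difference 1.80; limma adjusted p = 0.000696), Srxn1 at −1.16 and −2.22 (1.06; limma adjusted p = 0.00408), and Gclc at −1.05 and −1.89 (0.84; limma adjusted p = 0.0101). Slc7a11 (0.78), Txnrd1 (0.61) and Pgd (0.46) followed, where Slc7a11 on day 3 stood at 4.47 to 4.68 in KO and 5.55 to 5.79 in WT lungs. Ptgr1 ran the other way, at −0.29 on day 2 and 0.17 on day 3 (limma adjusted p = 0.0449 for the difference). The shares of all genes were 3.77% and 0.874%. Against day 1 limma called 0 of the 45; over all genes it called 16, or 0.0879%, 13 of them positive (0.0715%) and 3 negative (0.0165%), with 1083 at an unadjusted p under 0.05. Without the marked arrays, among them WT replicates 1 and 3 of day 3 with liver transcripts, 2 of the 6 remained called, Gsta2 and Slc7a11.

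**Figure D3:**
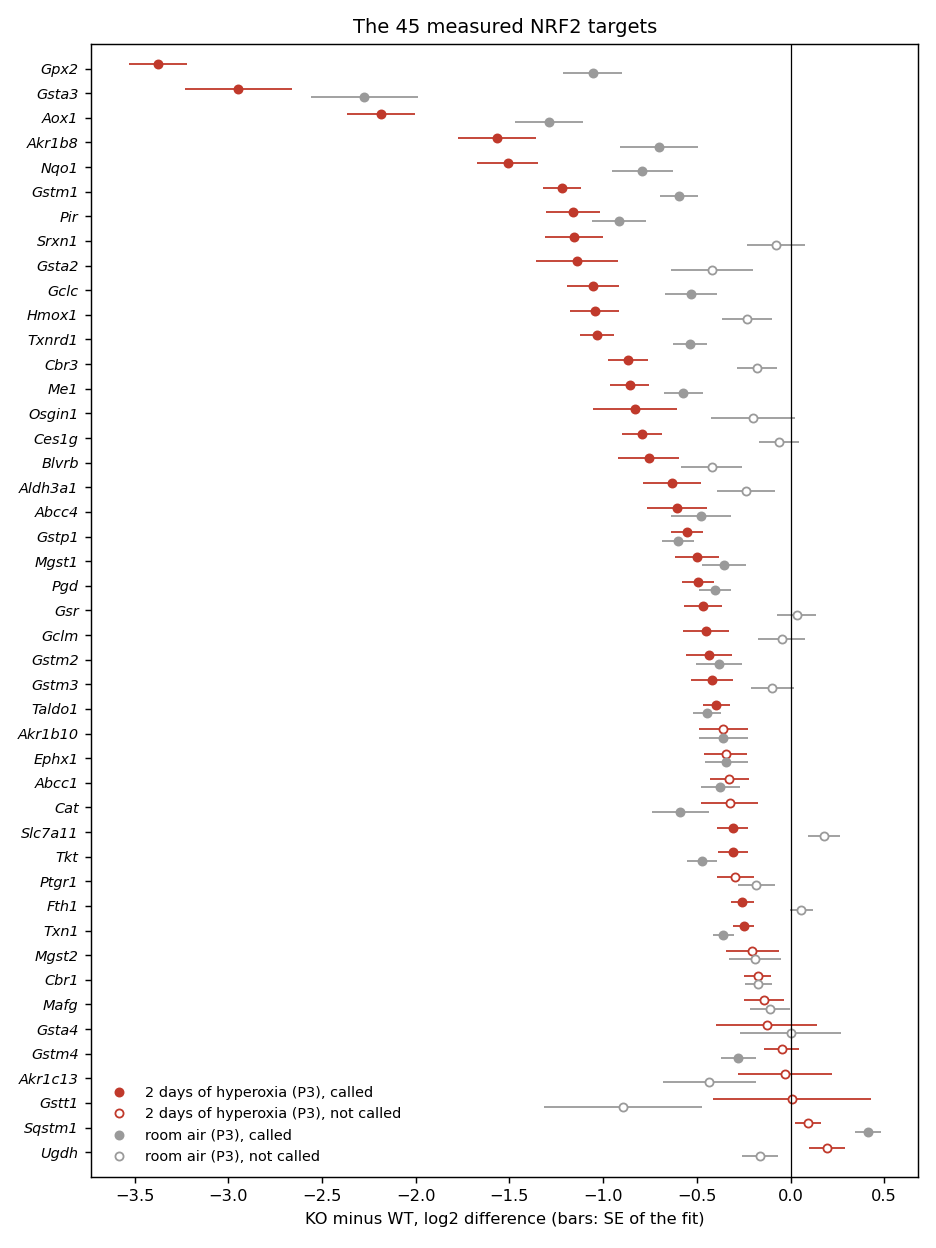
Difference of KO minus WT in log2 units (x axis; bars are the SE of the fit) for the 45 measured NRF2 targets, ordered by their difference after 2 days of hyperoxia (red, upper point of each pair) and shown with the difference in room air at P3 (grey). Filled points were called: 31 of 45 in hyperoxia, all below 0, and 24 in air, 23 of them below 0.

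The promoters of these genes were searched for the core of the antioxidant response element, TGACNNNGC, and for its reverse complement, GCNNNGTCA. The windows reach from 250 bases before to 50 bases after the start of transcription and come from RefSeq on GRCm38.p6. A match is a description of the letters and not a bound site. Of the 31 lowered targets 27 had a window, and 9 of these (33.3%) held a match: Txnrd1, Gsta3, Me1, Pir, Srxn1, Pgd, Mgst1, Abcc4 and Gclm. Of the 14 other targets 12 had a window and 2 (16.7%) a match. Of the tested genes 14453 had a window, and 2334 of these (16.1%) held a match. A gene with several windows was counted when any of them held a match. Of all 32851 windows 4071 (12.4%) held one. Of the 9 lowered targets with a match the 5 with the smallest p are printed, on the strand of the gene and with the match in capitals. They place the searched letters relative to the start site of genes that fell in KO lungs.

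The promoter of Txnrd1 (chr10:82858956-82859255, plus strand) holds the reverse form, beginning 92 bases before the start.
Txnrd1: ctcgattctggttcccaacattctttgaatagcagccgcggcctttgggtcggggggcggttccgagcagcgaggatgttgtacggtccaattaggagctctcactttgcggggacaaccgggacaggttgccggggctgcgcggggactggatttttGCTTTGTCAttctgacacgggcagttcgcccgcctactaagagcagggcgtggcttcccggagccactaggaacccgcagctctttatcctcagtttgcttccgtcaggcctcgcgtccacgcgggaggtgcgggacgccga
That of Gsta3 (chr1:21240335-21240634, plus strand) holds the forward form, beginning 121 bases before the start.
Gsta3: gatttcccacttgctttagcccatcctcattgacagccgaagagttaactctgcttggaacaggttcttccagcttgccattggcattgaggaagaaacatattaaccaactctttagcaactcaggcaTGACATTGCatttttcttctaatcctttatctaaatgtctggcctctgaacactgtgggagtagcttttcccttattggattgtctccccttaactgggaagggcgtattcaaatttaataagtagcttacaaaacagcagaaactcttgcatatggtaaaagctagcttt
Me1 (chr9:86695865-86696164, minus strand) has the forward form, beginning 6 bases before the start.
Me1: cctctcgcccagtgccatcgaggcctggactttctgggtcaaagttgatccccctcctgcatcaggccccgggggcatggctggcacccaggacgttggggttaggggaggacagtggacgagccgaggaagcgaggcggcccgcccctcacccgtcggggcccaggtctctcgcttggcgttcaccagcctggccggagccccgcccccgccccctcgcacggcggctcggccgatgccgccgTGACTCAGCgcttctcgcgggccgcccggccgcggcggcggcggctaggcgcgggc
Pir (chrX:164269181-164269480, plus strand) has 2 matches in the reverse form, beginning 214 bases before and 20 bases after the start.
Pir: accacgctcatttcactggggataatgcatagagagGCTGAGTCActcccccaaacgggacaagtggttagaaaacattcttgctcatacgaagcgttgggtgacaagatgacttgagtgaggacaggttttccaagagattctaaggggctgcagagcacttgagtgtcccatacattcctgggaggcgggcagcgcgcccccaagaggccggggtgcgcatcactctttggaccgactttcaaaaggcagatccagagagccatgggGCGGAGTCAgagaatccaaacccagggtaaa
Srxn1 (chr2:152105274-152105573, plus strand) has its match in the reverse form, beginning 29 bases after the start.
Srxn1: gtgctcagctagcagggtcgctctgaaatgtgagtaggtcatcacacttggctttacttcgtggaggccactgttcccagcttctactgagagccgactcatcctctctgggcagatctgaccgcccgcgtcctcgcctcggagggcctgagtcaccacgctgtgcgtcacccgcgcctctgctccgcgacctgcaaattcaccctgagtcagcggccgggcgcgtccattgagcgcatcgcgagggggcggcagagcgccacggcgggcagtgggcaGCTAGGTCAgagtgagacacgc

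The largest difference of the comparison after Nfe2l2 itself was a rise, in Trim12c, a member of the TRIM family of ubiquitin ligases that restrict viruses. It read 8.12, 7.44 and 8.27 in KO lungs and 4.74, 3.83 and 4.17 in WT lungs, or 3.70 ± 0.22 (limma adjusted p = 2.08e-13). WT replicates 2 and 3 lay below their 10th percentile, and raised to it Trim12c was at least 10-fold higher in KO. With its probe sets averaged the difference was 2.09. It lies among other Trim genes on chromosome 7, close paralogs whose transcripts a probe set may not fully tell apart, and these went both ways. Trim68 was higher by 1.68 and Trim21 by 0.36, while Trim34a was lower by 2.03, Trim5 by 1.29 and Trim30d by 1.19, and Trim12a, Trim30a, Trim6 and Trim3 did not pass. Close by on the same chromosome Rrp8 (−1.29), Tpp1 (−0.55) and Dchs1 (0.55) were called as well, these genes having been looked at after Trim12c was seen. Trim12c was also called higher in KO in air at P3 and after 1 and 3 days of hyperoxia, with KO arrays at 7.59 to 8.46 and WT arrays at 3.99 to 4.46. The call of Trim21 ended when its probe sets were averaged (0.0092; limma adjusted p = 0.979) and without WT replicate 1, KO replicate 1 or KO replicate 3.

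Several genes near Nfe2l2 on chromosome 2 differed as well. Of the 50 measured genes on each side, 14 of 100 (14%) were called, 10 higher and 4 lower, against 919 of 18093 other genes (5.08%). Rbm45, an RNA-binding protein gene 8 measured genes away, read 9.18, 9.54 and 9.62 in KO lungs and 7.25, 6.92 and 7.10 in WT lungs, or 2.35 ± 0.23 (5.11-fold; limma adjusted p = 3.85e-08). Itga6, the laminin-binding integrin alpha 6 subunit, 30 measured genes away on the other side, read 11.39, 11.17 and 11.36 in KO lungs and 9.75, 9.82 and 9.77 in WT lungs, or 1.53 ± 0.17 (limma adjusted p = 5.88e-07). Both groups are tight and far apart in these 2 genes. The others higher in KO were Metap1d (0.89), Pdk1 (0.68), Dcaf17 (0.64), Nckap1 (0.60), Cwc22 (0.41), Wipf1 (0.37), Itprid2 (0.36) and Gorasp2 (0.32). Those lower were E030042O20Rik (−0.65), Cyct (−0.64), Osbpl6 (−0.48) and Dnajc10 (−0.43). Calls held under every alternative for 6 of the 14, namely Itga6, Rbm45, Metap1d, Nckap1, E030042O20Rik and Cyct. E030042O20Rik, however, lay at the lower end of the scale (means 3.90 in KO and 4.55 in WT), and its size is not well measured. For this gene 3 KO and 2 WT arrays lay below their 10th percentile, and raised to that level the difference was −0.04. The loss of NRF2 and linked differences in the DNA around its gene cannot be told apart in these arrays.

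Several other large differences were steady in sign in air at P3 and after 1, 2 and 3 days of hyperoxia. The class I histocompatibility genes H2-K1 and H2-D1, which present peptides to CD8 T cells, were both higher by 0.99 in KO. H2-K1 read 12.49, 12.46 and 12.66 in KO lungs and 11.15, 11.63 and 11.85 in WT lungs (limma adjusted p = 5.21e-06), and its difference was 0.45 with probe sets averaged. They were the 2 called of 18 antigen presentation genes (11.1% beside 3.1%), and were higher by 0.83 to 1.21 in air and on days 1 and 3 as well. Falls of this steady kind were those of Lypd6 (−1.91), a modulator of nicotinic receptors, Aox3 (−1.79), another aldehyde oxidase, the adhesion receptor Adgre4 (−1.63), the synaptic adhesion gene Clstn2 (−1.58) and the myeloid receptor gene Treml4 (−1.48), all of them called with the same sign in air and on days 1 and 3. Mrap2, an accessory protein of melanocortin receptors, was higher by 1.22 on day 2, by 0.75 in air and by 0.82 on day 3, and did not pass on day 1 (0.46).

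Another set of rises differed between the time points. Per1, a core repressor of the circadian clock that glucocorticoids also induce, read 10.09, 10.07 and 10.38 in KO lungs and 7.50, 7.72 and 7.71 in WT lungs, or 2.54 ± 0.28 (5.80-fold; limma adjusted p = 4.68e-07). In air at P3 it was higher in KO by 2.31, after 1 day of hyperoxia it stood at −0.58 without passing, and after 3 days it was lower in KO by 1.08. Both differences between time points passed, with 3.11 against day 1 (limma adjusted p = 8.28e-05) and 3.62 against day 3 (limma adjusted p = 1.03e-06). In the WT arrays of day 2, Per1 lay below every other array of the 4 conditions shown in the plot of levels over time.

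Pde4b, a phosphodiesterase that breaks down cyclic AMP, had a pattern of its own. It read 10.43, 10.36 and 10.55 in KO lungs and 8.95, 9.04 and 9.04 in WT lungs on day 2, or 1.44 ± 0.17 (2.72-fold; limma adjusted p = 8.28e-07). With its probe sets averaged the difference was 0.469 and still passed (limma adjusted p = 0.00094). It stood at 0.01 in air and was lower in KO by 0.96 on day 1 and 0.76 on day 3, so that its difference on day 2 stood apart from all 3 (by 1.43, 2.40 and 2.20, all passing). The change from air did not pass without the arrays high in other tissues (limma adjusted p = 0.14). In air its arrays lay at 10.26, 10.34 and 10.37 in KO and 10.17, 10.30 and 10.49 in WT lungs, so the KO arrays of day 2 were near that level and the WT arrays below it. AA986860, a gene without an assigned role here, rose by 1.59 (0.89 with probe sets averaged) and Errfi1, a feedback inhibitor of the EGF receptor, by 1.21 on day 2, both also higher in air and not called on days 1 and 3. Slc10a6, a transporter of sulfated steroids, rose by 1.45, Tent5b by 1.18 and Kcne2, a potassium channel subunit, by 1.22. For Slc10a6 and Tent5b the difference had the opposite sign on day 3 (−1.49 and −1.21). The calls of Errfi1, Slc10a6 and Tent5b on day 2 ended with the scores of other tissues as covariates (limma adjusted p = 0.0868, 0.0588 and 0.078), and that of Kcne2 without KO replicate 3 (1.05; limma adjusted p = 0.0775).

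**Figure D4:**
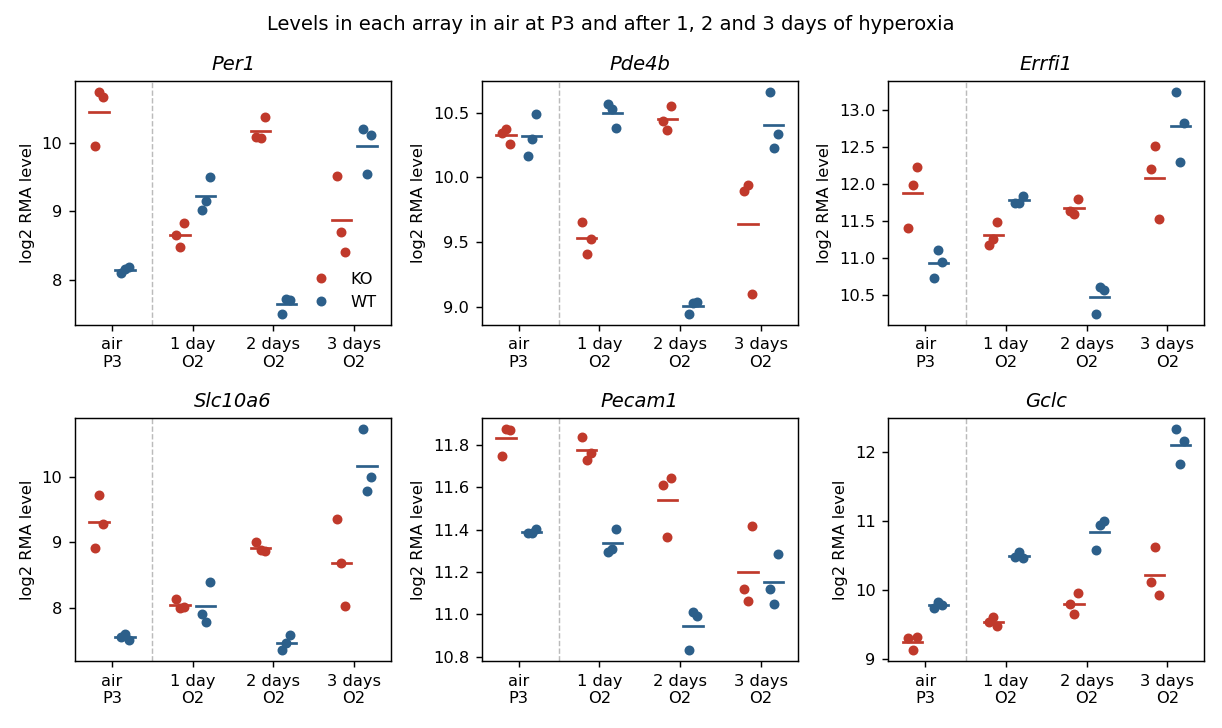
Log2 level (y axes, each with its own range) of 6 genes in the 3 KO arrays (red, left) and 3 WT arrays (blue) of each condition: room air at P3 and 1, 2 and 3 days of hyperoxia, with bars at the group means. Per1, Errfi1 and Slc10a6 are higher in KO in air and on day 2, Pde4b is higher in KO on day 2 alone, and Gclc is lower in KO in all 4 conditions.

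Per1 stands in 2 of the gene lists. Of 18 measured genes of the glucocorticoid response 4 were higher (22.2% beside 3.1%) and 0 lower, with a list median of 0.26: Per1, Errfi1, the transcription factor Klf15 (1.01) and the glucocorticoid receptor Nr3c1 (0.44). In air at P3 11 of the 18 were higher, beside 8.99% of all genes. Relative to all 42 arrays the list averaged there 0.03, 0.77 and 0.54 in KO lungs and −0.32 to −0.28 in WT lungs. KO replicates 2 and 3 in air carried skeletal muscle transcripts (5.58 and 2.24 above the median array), and their part in this count was not tested. Klf9 (0.73), Tsc22d3 (0.60) and Fkbp5 (0.29), common markers of the response, did not pass on day 2. Of 17 clock genes 2 were higher (11.8% beside 3.1%), Per1 and the repressor Cry2 (0.42). On day 2 the mean level of the glucocorticoid list relative to all 42 arrays was 0.34, 0.24 and 0.34 in KO lungs and −0.24, −0.09 and −0.09 in WT lungs. With the scores of other tissues as covariates only Per1 kept its call in these lists, where the limma adjusted p of Klf15 was 0.279, and the call of Klf15 ended without each single array. The hour at which the pups were killed is not given, so whether time of day differed between the groups was not tested.

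Of 24 measured endothelial genes 7 rose in KO (29.2% beside 3.1%) and 0 fell. Of the 24 differences 23 lay above 0, with a median of 0.37. At an unadjusted p under 0.05 in limma 16 were higher and 0 lower. Pecam1, the adhesion molecule of all endothelium, read 11.61, 11.37 and 11.64 in KO lungs and 10.83, 11.01 and 10.99 in WT lungs, or 0.60 ± 0.11 (1.51-fold; limma adjusted p = 0.000544). The rest were the endothelin receptor Ednrb (0.61), the apelin receptor Aplnr (0.61) and its ligand Apln (0.60), the lymphatic marker Lyve1 (0.54), the junction protein Cldn5 (0.52) and the TGF-beta co-receptor Eng (0.38). General markers such as Cdh5 (0.36), Kdr (0.38) and Tek (0.40) did not pass.

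The list averaged 0.14, 0.06 and 0.19 in KO lungs and −0.31, −0.16 and −0.18 in WT lungs relative to all 42 arrays, so the groups did not overlap, with WT replicate 1 the lowest. That array also carried the heart muscle transcripts. Without it 4 of the 24 were called higher, beside 1.48% of all genes, and also 4 without KO replicate 3, beside 1.03%. Of the 24, 1 was called once scores of other tissues entered the fit as covariates (0.852% of all genes), Pecam1, which held under every alternative. With array weights the count was 18, beside 10.3%. After 1 day of hyperoxia 3 members were higher and 0 lower in KO, beside 2.06% and 0.896% of all genes. The list median there was 0.29. In air at P3 5 were higher and 1 lower, beside 8.99% and 12.7%, with a median of 0.20. The change to day 2 passed for 0 members against day 1 (0.0879% of all genes) and for 1 against air (1.76%), Lyve1 (−0.66). On day 3, 1 member was higher and 4 were lower in KO, beside 3.67% and 6.14% of all genes, with a list median of −0.04. The difference between day 2 and day 3 passed for 7 members, among them Ednrb (1.13), Apln (1.11), Cldn5 (0.92), Lyve1 (0.80) and Pecam1 (0.55), beside 3.77% of all genes.

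Few signalling and matrix genes were called. Of 21 genes of TGF-beta and BMP signalling 3 rose (14.3% beside 3.1%), the endothelial receptor Acvrl1 (0.48), the ligand Tgfb1 (0.45) and the receptor Bmpr1a (0.25). Each of these 3 calls ended without KO replicate 3, where the limma adjusted p was 0.0968, 0.0797 and 0.122. That of Bmpr1a also ended with its probe sets averaged (0.08, limma adjusted p = 0.625). Tgfbi, a secreted matrix protein that TGF-beta induces, rose by 0.73 ± 0.12 (limma adjusted p = 0.000297) and held under every alternative. Emilin1, which links elastic fibres to cells, fell by 0.59 ± 0.09 (limma adjusted p = 0.000127), as it did in air and on days 1 and 3, and was the 1 called of 25 elastic fibre and matrix genes (4% beside 2.03%). Elastin itself (Eln) was at 0.03. Of 19 matrix proteases and inhibitors, Mmp11 (0.66) and Timp4 (0.34) rose (10.5% beside 3.1%), the call of Timp4 ending without each array but WT replicate 1 (limma adjusted p up to 0.166).

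Few epithelial markers were called. Of 13 club cell genes 3 fell (23.1% beside 2.03%) and 0 rose. Of these 3, 2 are detoxifying enzymes: Gsta3, counted above as an NRF2 target, and Aldh1a1, a retinaldehyde dehydrogenase, which read 11.08, 11.39 and 11.09 in KO lungs and 12.97, 12.74 and 13.02 in WT lungs, or −1.72 ± 0.28 (3.30-fold; limma adjusted p = 0.000201). The remaining one was the secreted defence protein Bpifa1 (−1.29; limma adjusted p = 0.0492, and up to 0.229 over the alternatives). The defining club cell gene Scgb1a1 was at 0.05 and did not pass. It lay at the upper end of the scale in all 6 arrays (14.57 to 14.67), where a difference may not show in full. Of the 13 differences 11 lay below 0, with a median of −0.40. Relative to all 42 arrays the club cell list averaged −0.55, −0.04 and −0.42 in KO lungs and 0.38, 0.26 and 0.55 in WT lungs, without overlap. Of 19 alveolar type 2 genes Sftpd, surfactant protein D, rose by 0.42 (5.26% beside 3.1%). Sftpc was at 0.06, also at the upper end of the scale (14.59 to 14.75). Of the 19 differences 18 lay above 0, with a median of 0.22. The list averaged 0.01 to 0.13 in KO lungs, −0.42 in WT replicate 1 and 0.00 in the other WT arrays. Of 18 alveolar type 1 genes Scnn1g, a subunit of the epithelial sodium channel, rose by 0.66 (5.56% beside 3.1%), and Ager was at 0.09. The calls of Sftpd and Scnn1g ended without WT replicate 1 (limma adjusted p = 0.0964 and 0.0851) and without KO replicate 3, and that of Sftpd also without WT replicate 3, KO replicate 1 or KO replicate 2. No gene of ciliated cells (16) or of injured epithelium (17) was called by limma, and 3 and 5 of them lay under an unadjusted p of 0.05.

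Of 23 measured macrophage genes 3 fell in KO (13% beside 2.03%) and 0 rose. Of the 23 differences 21 lay below 0, with a median of −0.24. Csf1r, the receptor that macrophages need to survive, read 10.81, 10.97 and 10.90 in KO lungs and 11.35, 11.53 and 11.52 in WT lungs, or −0.57 ± 0.11 (limma adjusted p = 0.00164; −0.36 with probe sets averaged). Adgre1, the F4/80 antigen, read 7.75, 7.52 and 7.72 in KO lungs and 8.04, 8.24 and 8.44 in WT lungs, or −0.57 ± 0.12 (limma adjusted p = 0.00304). The groups were narrow and apart in both. Lpl, lipoprotein lipase, which alveolar macrophages, fat and muscle share, fell by 1.21 ± 0.27 (limma adjusted p = 0.0057). A list of 9 fat cell genes, of which 0 were called, averaged −0.39, 0.33 and −0.39 in KO lungs and 0.60, 0.51 and 0.81 in WT lungs relative to all 42 arrays. Its groups did not overlap, Adipoq and Fabp4 differing by −2.13 and −1.79 without passing, and its part in the fall of Lpl was not tested. All 3 held under every alternative. Csf1r and Adgre1 were lower in KO by 0.42 and 0.58 in air as well.

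Markers of alveolar macrophages did not pass, Marco being at −1.01 (limma adjusted p = 0.0529) and Siglecf at −0.44. The monocyte growth factor Csf1 fell by 0.35 (3.03% of 33 cytokine and chemokine genes beside 2.03%). Its call ended without each array but KO replicate 2 and reached a limma adjusted p of 0.205 without KO replicate 3. With its probe sets averaged Csf1 stood at −0.0077 (limma adjusted p = 0.977). The interferon-induced Stat2 (0.43) was higher and Rsad2 (−1.16; limma adjusted p = 0.0495) lower, each 4.55% of 22 interferon response genes, beside 3.1% and 2.03% of all genes. The granzyme gene Gzma of cytotoxic lymphocytes was lower by 1.46 (limma adjusted p = 0.032; 6.25% of 16 lymphocyte genes beside 2.03%), its call ending without each array but WT replicate 1. The lymphocyte list averaged −0.02, 0.11 and 0.05 in KO lungs and −0.09, 0.79 and 0.33 in WT lungs, highest in WT replicate 2, the array with the thymocyte transcripts, whose part in the call was not tested. The call of Rsad2 ended without each single array. That of Stat2 ended without WT replicate 3 or KO replicate 3. It also ended with the probe sets of Stat2 averaged (0.20, limma adjusted p = 0.228). No neutrophil gene of 17 was called by limma and none lay under an unadjusted p of 0.05. Il6 was at −0.79 (limma adjusted p = 0.244).

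Genes of cell division gave 0 calls on day 2. Of 25 mitosis genes none passed in limma, the smallest adjusted p being 0.094 and 10 having an unadjusted p under 0.05. Yet 24 of 25 lay below 0, with a median of −0.62. In 24 of the 25 the KO arrays did not overlap the WT arrays, against 29.4% of all genes. Aurka, the mitotic kinase Aurora A, read 7.94, 8.06 and 8.07 in KO lungs and 8.90, 9.09 and 8.74 in WT lungs. Mki67, the proliferation antigen, read 9.90, 10.22 and 9.93 in KO lungs and 10.35, 10.92 and 10.64 in WT lungs, or −0.62 ± 0.28. With array weights 16 were called lower, beside 10.7% of all genes, and 15 when only the 6 arrays were fitted, beside 2.12%. In air at P3 12 of the 25 were lower, beside 12.7% of all genes. Relative to all 42 arrays the list averaged there 0.20, −0.61 and −0.53 in KO lungs and 0.43 to 0.67 in WT lungs. In air KO replicates 2 and 3 carried skeletal muscle and WT replicates 2 and 3 liver transcripts, and their part in this count was not tested.

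Of 30 measured DNA replication genes 0 were called on day 2 by limma, 1 lay under an unadjusted p of 0.05, and their median was −0.08. In air at P3 23 of the 30 were lower in KO, beside 12.7%, with a median of −0.84. The list averaged there −0.24, −0.59 and −0.52 in KO lungs and 0.34 to 0.50 in WT lungs relative to all 42 arrays. Replicates 2 and 3 of both genotypes in air carried transcripts of other tissues, and their part in this count was not tested. The change in this gap between air and hyperoxia passed for 3 of the 30 (Ccne2, Mcm4 and Pola1; the cyclin gene Ccne2 by 1.88), beside 1.34% of all genes. The count was 0 without WT replicate 1 of day 2, and 21, beside 1.9%, with the scores of other tissues as covariates. Of the targets of p53, 0 of 26 were called by limma, 2 had an unadjusted p under 0.05, and Cdkn1a, the cell cycle inhibitor p21, read 12.30, 12.25 and 12.35 in KO lungs and 12.13, 12.39 and 12.42 in WT lungs. With array weights 7 p53 targets were called lower, beside 10.7% of all genes.

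**Figure D5:**
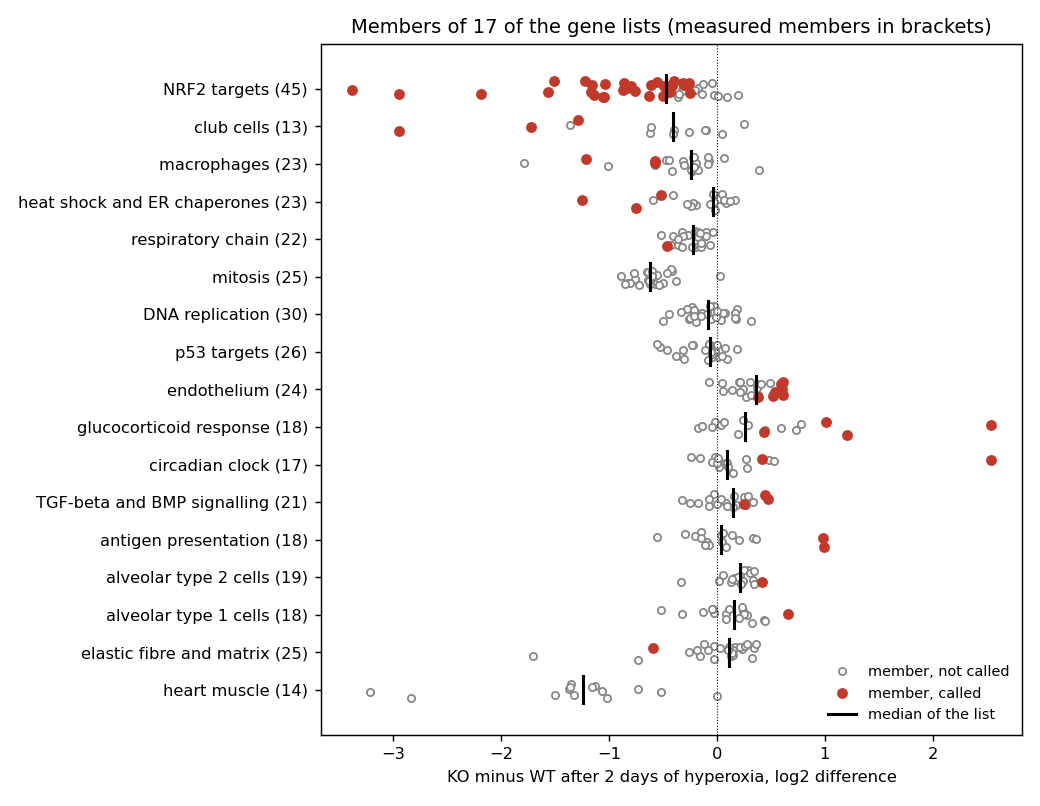
Difference of KO minus WT in log2 units after 2 days of hyperoxia (x axis) for the measured members of 17 of the gene lists; points are spread up and down within a row only to keep them apart, filled red points were called, and black bars mark the medians. The medians of the NRF2 targets (−0.47) and of the mitosis genes (−0.62, 0 called) lie to the left of 0. That of the endothelial genes (0.37) lies to the right. WT replicate 1 stood apart in the heart muscle list (−1.24, 0 called). It also lay apart from the other WT arrays, by less, in other rows, among them the respiratory chain and the alveolar type 1 and type 2 lists.

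Stress and metabolic lists held few calls. Of 23 heat shock and ER chaperone genes 3 fell (13% beside 2.03%). Hspa1a, an inducible HSP70, read 6.93, 6.85 and 6.87 in KO lungs and 8.41, 7.68 and 8.31 in WT lungs, or −1.25 ± 0.22 (limma adjusted p = 0.000544), and its near-identical copy Hspa1b fell by 0.75, so that the array may not tell the copies apart. Sdf2l1, an ER chaperone subunit, fell by 0.51. In air at P3 15 of the 23 were lower, beside 12.7%, and on day 3 of hyperoxia 8 were higher, beside 3.67%. For Hspa1a the difference on day 2 minus that on day 3 was −1.84 (limma adjusted p = 0.000655). The call of Hspa1b ended without each array but WT replicate 2, most of all without WT replicate 1 (−0.60; limma adjusted p = 0.203), and that of Sdf2l1 with the scores of other tissues as covariates (limma adjusted p = 0.12).

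Of 15 genes of metal handling 2 fell, the transferrin receptor Tfrc (−0.81) and the iron exporter Slc40a1 (−0.63), which is 13.3% beside 2.03%. Of 15 cholesterol synthesis genes 2 rose, Msmo1 (0.52) and the regulator Srebf2 (0.38), or 13.3% beside 3.1%. Of 23 hypoxia response genes Slc2a1, the glucose transporter GLUT1, fell by 0.74, while Pdk1, a neighbour of Nfe2l2, rose. Each was 4.35% of the list, beside 2.03% and 3.1% of all genes. All of these calls ended without at least 3 of the 6 arrays taken singly, with limma adjusted p up to 0.186 for Slc40a1 without WT replicate 3 and 0.15 for Slc2a1 without WT replicate 1. Those of Tfrc (−0.40) and Pdk1 (0.18) also ended with probe sets averaged (limma adjusted p = 0.128 and 0.544). Tfrc lost its call as well with the scores of other tissues, erythroid cells among them, as covariates (−0.37; limma adjusted p = 0.134). All 22 respiratory chain genes lay below 0 with a median of −0.22, and 1, Ndufa4 (−0.46), was called (4.55% beside 2.03%). The list's mean level reached 0.57 in WT replicate 1, against 0.09 at most in KO, and the call of Ndufa4 ended without that array (−0.35; limma adjusted p = 0.209) and without each KO array (limma adjusted p up to 0.112). The proteasome subunit gene Psma5 fell by 0.23 (limma adjusted p = 0.0426), 1 of 26 (3.85% beside 2.03%). Its call ended without each single array, and with probe sets averaged it stood at −0.06 (limma adjusted p = 0.552).

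Set against air at P3, the gap between genotypes on day 2 differed for 320 genes in all (1.76%), 243 of them in the positive direction (1.34%) and 77 in the negative (0.423%). Several of the largest were in genes called in air and not on day 2. Hdc, histidine decarboxylase, which makes histamine, was lower in KO by 2.01 in air and stood at 0.23 on day 2 (difference 2.24; limma adjusted p = 3.18e-06). Slitrk6, a neuronal adhesion gene, was lower by 2.00 in air and stood at 0.01 on day 2 (difference 2.02; limma adjusted p = 0.000842). Cdkn1a was higher by 0.93 in air and stood at −0.01 on day 2 (difference −0.94; limma adjusted p = 0.0259). Slc17a2, a phosphate transporter, changed sides, lower by 0.75 in air and higher by 0.97 on day 2. So did Adssl1, an adenylosuccinate synthase, higher by 1.02 in air and lower by 1.21 on day 2. The day 2 call of Adssl1 ended with the scores of other tissues as covariates and without each array but KO replicate 2 (limma adjusted p up to 0.17). KO replicates 2 and 3 in air carried skeletal muscle and WT replicate 1 of day 2 heart muscle transcripts, whose part in this change was not tested. Without the arrays that carried transcripts of other tissues 80 genes were called, and of these 5 genes only Hdc remained among them.

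Against day 1 of hyperoxia the gap differed for 16 genes, and against day 3 for 845 (4.64%), 686 of them positive (3.77%) and 159 negative (0.874%). The few against day 1 were led by Per1, Pde4b, AA986860 and Errfi1 on the positive side. On the negative side were 3 genes in all, the zinc finger genes Thap2 (−0.90), Zfp235 (−0.61) and Zfp346 (−0.56). Thap2 was lower in KO on day 2 by 0.54 and in air by 1.85, while on days 1 and 3 it stood at 0.35 and 0.19 without passing. Against day 3, Dmkn, a secreted epidermal protein, the adhesion gene Chl1 and the protease inhibitor Tfpi2 had the largest negative differences (−2.21, −2.05 and −1.94). They were not called on day 2, where they stood at −0.45, −0.38 and −0.59, and were higher in KO on day 3 by 1.77, 1.67 and 1.35. Removing single arrays moved the count against day 3 between 469 and 1108, and that against day 1 between 5 and 12.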

How the data were processed

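RNA from the homogenised lung of 1 mouse per array was labelled with biotin and hybridised to Affymetrix 3' arrays, per the labels' protocols, with 3 separate mice in each of 14 groups. The deposited table holds log2 expression values that the authors made with RMA after GCOS, per the submitters' processing notes; the sources used here do not give versions, scan dates or batches. Of 45101 probe sets, 34958 carried 1 gene symbol, 932 carried several and 9211 had none listed. The probe set of highest mean over the 42 arrays stood for each of 18194 genes, of which 9012 had several. Medians over these genes lay between 7.52 and 7.75, and no further scaling was applied.

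One limma 3.58.1 model (R 4.3.3 with the package data.table, version 1.17.8) was fitted to all 14 groups, with 28 residual degrees of freedom, and gave 7 contrasts. Tests are two-sided with Benjamini-Hochberg adjustment over all genes at 0.05. The script was first tested on simulated data. The gene lists (40 lists, 735 measured genes) and the members of the comparison were chosen with earlier results of these data known. Genes were named when among the 12 largest rises or falls with groups that do not overlap (leaving out Nfe2l2, sex genes and predicted genes, namely Gm, Rik, LOC and RIKEN clone names), among the 4 of smallest p called in a list, among the largest changes in the differences between conditions (6 each way against air, 3 each way against 1 and 3 days, with the same genes left out), or on a short list always given. Further list members, the neighbours of Nfe2l2 and the Trim genes were chosen after their values were seen. Alternatives covered normalisation, variance and weighting choices, probe set rules, covariates, the replicate number as a block and leaving out each array. An alternative without every array over 2 log2 units high in genes of another tissue was chosen after seeing the data. Arrays of the same replicate number did not deviate together.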

Additional observations from a re-analysis of the deposited data

Results flagged for a closer look

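The difference between KO and WT on day 2 of hyperoxia was set against that in air at P3, and the change passed in limma for the following named genes, given as the day 2 difference minus that in air. On the positive side were Hdc (2.24), Slitrk6 (2.02), Ccne2 (1.88), Slc17a2 (1.72), Dscc1 (1.54), Pde4b (1.43) and Thap2 (1.31). On the negative side NRF2 targets were Gpx2 (−2.32), Srxn1 (−1.08), Hmox1 (−0.81), Ces1g (−0.73), Cbr3 (−0.69), Gstm1 (−0.62), Txnrd1 (−0.50), Slc7a11 (−0.49) and Fth1 (−0.31). The other negative ones were Adssl1 (−2.23), Ahnak2 (−1.41), Hspa1b (−1.34), Mkrn1 (−1.31), Rprd2 (−1.28), Cdkn1a (−0.94) and Lyve1 (−0.66). The calls of Gpx2, Hdc and Thap2 held under every alternative, with limma adjusted p up to 0.00532, 0.0328 and 0.00759. Without the arrays high in other tissues only those 3, Dscc1 and Lyve1 were still called, with 1 array of each genotype left in air and assumed to vary like the other groups, and the calls of Dscc1 and Lyve1 ended in other alternatives that leave out 1 array.

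Against day 1 of hyperoxia the changes, as day 2 minus day 1, were Per1 (3.11), Pde4b (2.40), AA986860 (1.84), Errfi1 (1.68), Thap2 (−0.90), Zfp235 (−0.61) and Zfp346 (−0.56). Per1 and Pde4b held under every alternative, with limma adjusted p up to 0.0366 and 0.00189. The calls of AA986860, Errfi1, Zfp235 and Zfp346 ended without most single arrays, with limma adjusted p up to 0.178, 0.173, 0.949 and 0.32 over the alternatives, and that of Thap2 without WT or KO replicate 2 of day 1 (up to 0.0614).

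Against day 3 the changes, as day 2 minus day 3, were positive in Per1 (3.62), Slc10a6 (2.94), Slc17a2 (2.43), Tent5b (2.39), Pde4b (2.20), Kcne2 (1.99), Errfi1 (1.92), AA986860 (1.88), Bach2 (1.46), Rprd2 (1.40) and Klf15 (1.37). Those of NRF2 targets were Gsta2 (1.80), Srxn1 (1.06), Gclc (0.84), Slc7a11 (0.78), Txnrd1 (0.61), Pgd (0.46) and Ptgr1 (−0.46). Endothelial and epithelial genes were Ednrb (1.13), Apln (1.11), Cldn5 (0.92), Lyve1 (0.80), Scnn1g (0.78) and Pecam1 (0.55). Tgfbi (0.86), Msmo1 (0.70), Cry2 (0.61) and Bmpr1a (0.35) followed. The negative ones were Dmkn (−2.21), Chl1 (−2.05), Tfpi2 (−1.94), Hspa1a (−1.84), Hspa1b (−1.58), Sdf2l1 (−0.73), Thap2 (−0.73) and Zfp346 (−0.52). Per1, Slc10a6, Slc17a2, Tent5b, Pde4b, Kcne2, Bach2, Gsta2, Ednrb and Hspa1b held under every alternative tried, with limma adjusted p up to 0.0478. The call of Klf15 ended in 14 alternatives and that of Msmo1 also in 14, among them those without each array of day 2, and those of Pgd and Pecam1 without WT replicate 1 or KO replicate 3 of day 2, among others.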

How the results depend on the processing

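The count of genes called between KO and WT on day 2 (934) was 3820 with array weights, 1753 with every probe set on its own, 327 with the scores of other tissues as covariates and 67 at a change of at least 2-fold, and 357 to 645 when 1 array was left out. Of the called genes 60.4% were higher in KO, against 49.0% with cyclic loess, 49.0% with array weights, 47.4% with the covariates and 44.6% when arrays high in other tissues were left out. The change from air (320) was called for 2084 genes with array weights, 172 with the mean of probe sets, 80 without the arrays high in other tissues, 39 at 2-fold and 137 to 318 with 1 array left out; its share of positive calls was 75.9%, against 52.8% with cyclic loess. The change from day 1 (16) was called for 31 with cyclic loess, 427 with array weights, 10 with every probe set, 53 with only the arrays of the contrast, 6 with only the hyperoxia arrays, 27 with a sex score, 9 with the covariates, 6 without the arrays high in other tissues, 8 at 2-fold and 5 to 12 with 1 array left out. The change from day 3 (845) was called for 1658 with array weights, 466 with only the arrays of the contrast, 227 with the covariates, 193 without the arrays high in other tissues, 122 at 2-fold and 469 to 1108 with 1 array left out, with 81.2% positive against 70.1% under cyclic loess. The replicate block gave 993 genes for day 2, 315 against air, 9 against day 1 and 905 against day 3. The numbers did not pair the arrays: deviations of same-numbered KO and WT arrays correlated at −0.26, −0.43 and 0.05. The causes of these shifts were not tested.

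Of 208 results on single genes 177 were called, 66 of these held under every alternative, 111 lost their call in at least 1, and 0 changed sign. Sign changes occurred in 11 genes that were not called on day 2. With the covariates these were Ager (−0.0513), Akr1c13 (0.4133), Ccne2 (0.2443), Eln (−0.014), Mgst2 (0.0176), Sftpc (−0.0066) and Slitrk6 (−0.0227), and with cyclic loess Eln (−0.0379) and Sftpc (−0.0111). With array weights they were Gstt1 (−0.14) and Slitrk6 (−0.2312), and without the arrays high in other tissues Gstm4 (0.0131), Gstt1 (−0.153) and Slitrk6 (−0.2591). Zfp235 was at 0.1964 with the mean of probe sets and 0.4963 with every probe set. With 1 array left out the range was −0.1074 to 0.0145 for Akr1c13, −0.1047 to 0.0389 for Cdkn1a, −0.132 to 0.1875 for Eln, −0.1335 to 0.0131 for Gstm4, −0.2677 to 0.1627 for Gstt1 and −0.2591 to 0.1604 for Slitrk6. Averaging probe sets also gave smaller day 2 differences, still called, for Trim34a (−0.62), Trim30d (−0.71), Lypd6 (−0.98), Emilin1 (−0.35), Mgst1 (−0.26), H2-D1 (0.62), Metap1d (0.45) and Tgfb1 (0.25).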
